A study of Mus musculus and Homo sapiens with 14 samples.

Results

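Nfasc and 7 other genes of axo-glial adhesion were followed in mouse oligodendroglial and medulloblastoma cells grown alone or beside another line. They were Nfasc, Nrcam, Chl1 and L1cam of the L1 family, Ncam1, Cntn1, Cadm1 and Cadm4, taken by symbol. All 8 were found among the 35288 gene identifiers of each mouse table. They were chosen by their role, with the measured TPM and fold changes of these tables known and above all the Nfasc level in Oli-neu beside MB1. Differences in the Oli-neu libraries are therefore a description with no p-value. The MB1 values were known at the choice too, so the p-values given for MB1 are not independent evidence.

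Adhesion molecules of the immunoglobulin superfamily join glial membranes to axons. At the paranode, where the myelin sheath ends beside the node of Ranvier, a glial form of neurofascin faces contactin-1 and Caspr on the axon, while a neuronal form lies at the node together with NrCAM. Along the internode, adhesion runs through the nectin-like proteins, with Cadm4 on the glial side.

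Poly(A) RNA was sequenced in 14 libraries from 3 cell lines. There were 7 culture conditions with 2 biological replicates each, of which 5 conditions with 10 libraries were mouse. The groups were Oli-neu with MB1, Oli-neu with D341, Oli-neu alone, MB1 with Oli-neu and MB1 alone. In co-culture, inserts with pores of 0.4 µm separated the lines. Oli-neu is a mouse oligodendrocyte precursor line. MB1 was established from tumours of Atoh1-cre:SmoM2 mice at postnatal day 12, in which Cre under the Atoh1 promoter turns on an active Smoothened in the granule lineage. D341 is a human Group 3 medulloblastoma line, whose own libraries were not analysed here. All groups had EGF and bFGF in the medium at 20 ng/mL. Each group stands for 1 cell line, so its libraries sample cultures and not animals.

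Values are TPM, an abundance per transcript length that sums to a fixed total in each library. Pseudogenes held 36.0% to 38.2% of this total in Oli-neu and 25.2% to 26.8% in MB1. Mitochondrially encoded genes held 1.93% to 4.53% and 5.73% to 9.56%. The part left for other genes thus differed between the lines, so their TPM are not on quite the same scale. Between 11596 and 12338 genes reached 1 TPM in a mouse library. The depth is unknown because the tables hold no counts. Of 9 oligodendrocyte precursor markers, 8 were at 1 TPM or more in every Oli-neu library, and their summed level was 471 to 616 TPM. In the MB1 libraries 6 to 8 of these markers reached 1 TPM, with a higher summed level of 721 to 1196 TPM. The sum was thus higher in every MB1 library, while the single markers went both ways. Sox10 was at 171 to 235 TPM in Oli-neu and at most at 0.882 TPM in MB1. Olig1 was at 126 to 187 TPM in Oli-neu and at 455 to 833 TPM in MB1. Pdgfra, Cspg4 and Gpr17 were also higher in Oli-neu, and Olig2, Nkx2-2, Sox8 and Lhfpl3 in MB1. Oli-neu carried few markers of mature neurons: 2 or 3 of 10 neuronal markers reached 1 TPM, and Rbfox3 and Stmn2 stayed under 0.01 TPM. In MB1, 4 or 5 of 9 granule-lineage markers reached 1 TPM, with a summed level of 133 to 195 TPM. In MB1 alone Zic1 was at 84.3 and 63.7 TPM and the hedgehog target Ptch1 at 18.4 and 14.2 TPM, while in all 4 MB1 libraries Atoh1 was at most at 0.0143 TPM and the hedgehog target Gli1 at most at 0.178 TPM. The libraries numbered 1 and 2 stood apart in all 3 Oli-neu groups, and what the number marks is not given in the labels. In these bulk samples, fewer cells expressing a gene and less RNA per cell cannot be told apart.

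Nfasc encodes neurofascin, which in oligodendrocytes anchors the paranodal loops. The gene (ENSMUSG00000026442) lies on chromosome 1 of GRCm38, from 132564690 to 132741797 on the minus strand, with 10 annotated transcripts of which 6 are protein-coding. The values are summed over transcripts, so glial and neuronal forms were not separated. The stretch before the start of the coding transcript Nfasc-201 is shown because Nfasc is the member with the widest range in Oli-neu, and those of Nrcam and Cadm4 are shown beside it as genes with overlapping levels in all 3 Oli-neu groups. Chl1 overlapped in all 3 as well, but its stretch is not printed. The stretches of Chl1 and Nfasc both lie inside the span of annotated transcripts. For Nfasc these include the coding Nfasc-208, which runs from 132741797 to 132599835. Another listed Nfasc start, at 132642858, is not shown. RefSeq on GRCm38.p6 listed promoters for 6 of the 8 members. Each line is taken from the 250 bases before a listed start, 5′ to 3′ on the gene's strand. The line of Nfasc stops after 170 bases, where the coding transcript Nfasc-207 starts. The stretches are chr1:132707407-132707576 (minus), chr12:44328635-44328884 (plus) and chr7:24481773-24482022 (plus). Capitals mark every match, on either strand, to CANNTG (an E-box, bound by basic helix-loop-helix factors) or to ACAANG (a core bound by SOX factors).

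Nfasc: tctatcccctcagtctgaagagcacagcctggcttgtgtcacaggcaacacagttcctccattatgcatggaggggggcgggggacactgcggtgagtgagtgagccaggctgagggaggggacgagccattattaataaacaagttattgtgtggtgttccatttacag
Nrcam: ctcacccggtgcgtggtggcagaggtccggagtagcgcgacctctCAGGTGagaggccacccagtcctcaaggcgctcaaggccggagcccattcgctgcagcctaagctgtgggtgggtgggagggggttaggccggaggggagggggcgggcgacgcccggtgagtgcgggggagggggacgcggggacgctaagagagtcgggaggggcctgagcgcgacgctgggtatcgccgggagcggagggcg
Cadm4: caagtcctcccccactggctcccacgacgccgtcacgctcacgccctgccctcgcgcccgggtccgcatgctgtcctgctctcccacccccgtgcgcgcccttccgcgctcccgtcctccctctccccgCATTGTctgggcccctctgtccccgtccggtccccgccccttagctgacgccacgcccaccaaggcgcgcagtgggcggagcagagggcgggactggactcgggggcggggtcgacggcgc

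Over the 250 bases, Nfasc and Nrcam held 1 E-box each, that of Nfasc in the 80 bases left out, and Cadm4 held 1 SOX match. Such matches are common, with an E-box in 66.2% and a SOX match in 36.3% of 32851 promoters of the same length. The letters GACCACCCA of GLI factors, TGANTCA of AP-1 and TTCNNNGAA of STAT factors were in none of the 3. They occurred in 0.225%, 6.75% and 7.02% of all promoters. The composition of these 250 bases differed, with 4 CG dinucleotides and 52% G and C for Nfasc, against 25 and 72.4% for Nrcam and 30 and 75.2% for Cadm4, while Chl1 had 8 and 52.4%. The median promoter held 6 CG dinucleotides and 52.4% G and C. The Nfasc bases lie before a start inside the gene, while those of Nrcam and Cadm4 lie before the first base of the gene. No promoter was listed at the start of Nfasc-208, 132741797.

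Nfasc was at 10.96 and 6.05 TPM in Oli-neu with MB1, at 0.775 and 0.541 TPM in Oli-neu with D341 and at 1.07 and 0.847 TPM in Oli-neu alone. Both libraries beside MB1 lay above every other Oli-neu library, and both beside D341 lay below both of Oli-neu alone. The means were 8.50 ± 3.47 TPM with MB1, 0.658 ± 0.166 TPM with D341 and 0.957 ± 0.155 TPM alone (SD, n = 2 each). The mean with MB1 was 8.88 times that of Oli-neu alone. The log2 fold change on the scale of log2(TPM + 1) was 2.23 with an SE of 0.276. Within the number 1 libraries Nfasc was 10.3 times as high with MB1 as alone, and within the number 2 libraries 7.14 times. On the log2 scale the size of the change depended on the pseudocount, with 2.97 at 0.1 TPM and 1.16 at 5 TPM. Beside D341 the log2 fold change was -0.24, smaller than its SE of 0.276, which was estimated over all Oli-neu groups together. Between libraries of the same number it was -0.22 and -0.26, at levels near 1 TPM or below.

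**Figure D1:**
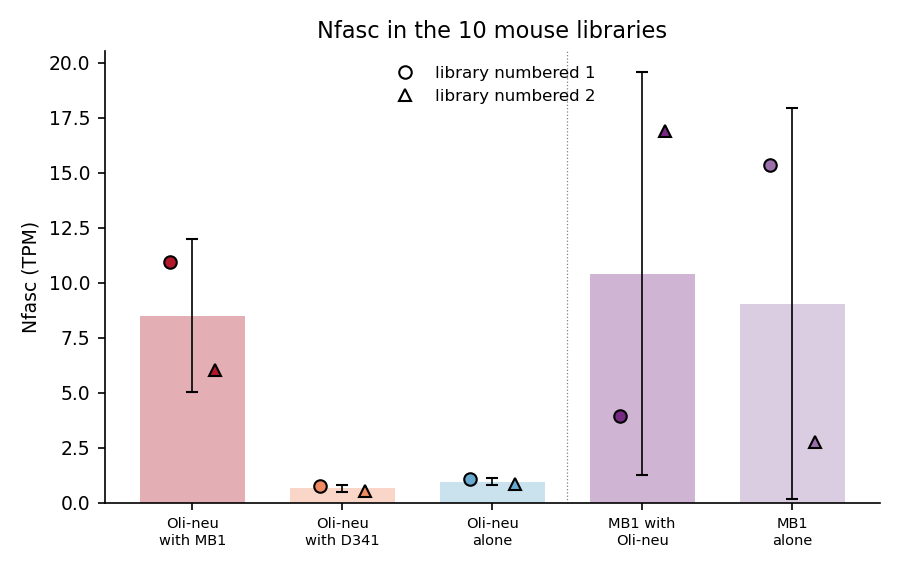
Nfasc level in TPM in the 5 mouse culture groups, with a bar for the mean of 2 libraries, an error bar for the SD, a circle for the library numbered 1 and a triangle for the library numbered 2. Oli-neu with MB1 is at 10.96 and 6.05 TPM, within the range of the MB1 libraries, and the other 4 Oli-neu libraries lie between 0.541 and 1.07 TPM.

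The MB1 line itself expressed Nfasc. It was at 3.93 and 16.9 TPM in MB1 with Oli-neu and at 15.3 and 2.76 TPM in MB1 alone. The levels of the 2 lines come from separate tables and were not tested against each other. Carry-over of MB1 transcripts was read from the 15 genes at 50 TPM or more in MB1 alone and under 0.1 TPM in Oli-neu alone. Their level in Oli-neu with MB1 was 0.00122% and 0.0570% of that in MB1, against 0.00157% and 0.00800% in Oli-neu alone. It was 0.00591% and 0.00730% in Oli-neu with D341. These genes were chosen for low levels in Oli-neu alone. In library 2 of Oli-neu with MB1, 1 of the 15 reached 1 TPM, at 1.66 TPM, and in the other Oli-neu libraries 0 did. The part of carry-over in the Nfasc level was not tested. Among the 15, Zic1, a granule-lineage factor, was at 0.00468 and 0.0322 TPM in Oli-neu with MB1 and at 84.3 and 63.7 TPM in MB1 alone. The summed markers of the cerebellar granule lineage were 13.3 to 13.6 TPM in Oli-neu with MB1, with 2 of 9 at 1 TPM, and 12.7 to 16.9 TPM in Oli-neu alone, with 3 of 9 at 1 TPM. The summed neuronal markers were 55.3 to 64.8 TPM with MB1 and 69.8 to 85.1 TPM alone. Most of this sum was Gap43, at 61.5 and 52.6 TPM with MB1 and at 81.8 and 66.3 TPM alone.

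In MB1 the Nfasc libraries did not follow the culture condition. Nfasc was high in MB1 with Oli-neu library 2 and MB1 alone library 1, and low in the other library of each group. The higher library was 4.30 times the lower in MB1 with Oli-neu and 5.56 times in MB1 alone. The groups overlapped, with means of 10.4 ± 9.16 TPM with Oli-neu and 9.05 ± 8.89 TPM alone (SD, n = 2 each). The log2 fold change was 0.26 with an SE of 0.915 and an adjusted p of 0.898 (limma). Its direction followed 1 library of each group. It was -0.80 without MB1 alone replicate 2 and -0.67 without MB1 with Oli-neu replicate 2, and reached 1.32 with another library left out.

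Nrcam, a partner of neurofascin at the node, lies on chromosome 12 from 44328885 to 44601964. It was at 37.8 and 20.4 TPM in Oli-neu with MB1, at 22.6 and 19.0 TPM in Oli-neu with D341 and at 31.4 and 21.9 TPM in Oli-neu alone. The 3 groups overlapped, and in each the library numbered 1 was the higher. Nrcam had log2 fold changes of 0.08 with MB1 (SE 0.333) and -0.33 with D341 (SE 0.333). In MB1, Nrcam was at 52.5 and 48.0 TPM with Oli-neu and at 41.9 and 34.2 TPM alone, with both co-culture libraries above both of MB1 alone. Its log2 fold change of 0.40 (SE 0.172) did not pass, with an adjusted p of 0.343 (limma).

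Chl1, the close homologue of L1, lies on chromosome 6 from 103510586 to 103750211. It was at 35.7 and 23.3 TPM in Oli-neu with MB1, at 26.0 and 20.3 TPM in Oli-neu with D341 and at 26.1 and 22.8 TPM in Oli-neu alone. As with Nrcam, the groups overlapped and the library numbered 1 was the higher in each. Chl1 had log2 fold changes of 0.23 with MB1 (SE 0.243) and -0.08 with D341 (SE 0.243), the last at 0.10 with median-ratio scaling. In MB1 it was at 32.7 and 36.2 TPM with Oli-neu and at 42.6 and 31.1 TPM alone, and the groups overlapped. In MB1 its log2 fold change was -0.08 (SE 0.204), with an adjusted p of 0.857 (limma), and turned in sign to 0.11 with that scaling and to 0.14 without MB1 alone replicate 1.

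L1cam, known for its part in axon growth, lies on chromosome X from 73853778 to 73896105. It was at 3.86 and 3.16 TPM in Oli-neu with MB1, at 4.87 and 4.85 TPM in Oli-neu with D341 and at 3.79 and 4.35 TPM in Oli-neu alone. Both libraries beside D341 lay above the other 4. L1cam had log2 fold changes of -0.17 with MB1 (SE 0.128) and 0.21 with D341 (SE 0.128). In MB1 it was at 0.0331 and 0.215 TPM with Oli-neu and at 0.134 and 0.279 TPM alone, so it did not reach the minimum of 1 TPM in at least 2 libraries and was not tested there. Every MB1 library lay below every Oli-neu library.

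Ncam1, the neural cell adhesion molecule that binds itself across cells, lies on chromosome 9 from 49502136 to 49798925. It was at 84.1 and 67.4 TPM in Oli-neu with MB1, at 67.6 and 58.5 TPM in Oli-neu with D341 and at 59.9 and 58.1 TPM in Oli-neu alone. Both libraries beside MB1 were above both of Oli-neu alone, and the group beside D341 overlapped each of the others. For Ncam1 the log2 fold changes were 0.35 with MB1 (SE 0.156) and 0.09 with D341 (SE 0.156). In MB1 the levels overlapped, at 44.2 and 61.2 TPM with Oli-neu and at 59.9 and 44.7 TPM alone. Their log2 fold change was 0.01 (SE 0.243), with an adjusted p of 0.991 (limma), and -0.22 without MB1 with Oli-neu replicate 2 or -0.20 without MB1 alone replicate 2. As for Nfasc, the higher libraries were MB1 with Oli-neu library 2 and MB1 alone library 1.

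Cntn1, a lipid-anchored contactin that binds neurofascin, lies on chromosome 15 from 92051165 to 92341967. It was at 66.5 and 48.0 TPM in Oli-neu with MB1, at 41.5 and 38.4 TPM in Oli-neu with D341 and at 63.7 and 53.9 TPM in Oli-neu alone. Both libraries beside D341 lay below the other 4, which overlapped. Cntn1 had log2 fold changes of -0.05 with MB1 (SE 0.194) and -0.54 with D341 (SE 0.194), and with median-ratio scaling 0.02 and -0.36. In MB1 both co-culture libraries, at 27.3 and 23.6 TPM, lay above both of MB1 alone, at 23.1 and 19.4 TPM. Its log2 fold change of 0.25 (SE 0.173) did not pass, with an adjusted p of 0.481 (limma). Every Oli-neu library lay above every MB1 library.

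Cadm1, a nectin-like molecule of synapses and glial contacts, lies on chromosome 9 from 47530173 to 47857637, 1.64 Mb from Ncam1. It was at 17.8 and 15.5 TPM in Oli-neu with MB1, at 14.2 and 15.6 TPM in Oli-neu with D341 and at 14.8 and 13.3 TPM in Oli-neu alone. Both libraries beside MB1 were above both of Oli-neu alone, with a log2 fold change of 0.22 (SE 0.124). Beside D341 the groups overlapped, with 0.07 (SE 0.124). In MB1 it was at 13.8 and 19.3 TPM with Oli-neu and at 13.1 and 11.3 TPM alone, and these did not overlap. The log2 fold change of 0.39 (SE 0.214) had an adjusted p of 0.406 (limma).

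Cadm4, the glial nectin-like molecule of the internode, lies on chromosome 7 from 24482023 to 24504539, and had the highest level of the 8 in every library. It was at 255 and 301 TPM in Oli-neu with MB1, at 221 and 295 TPM in Oli-neu with D341 and at 266 and 269 TPM in Oli-neu alone. The 3 groups overlapped, and their spread was wider in co-culture than in the 2 libraries grown alone. Cadm4 had log2 fold changes of 0.05 with MB1 (SE 0.185) and -0.07 with D341 (SE 0.185), and the sign of the last turned to 0.12 with median-ratio scaling. In MB1 it was at 184 and 181 TPM with Oli-neu and at 142 and 212 TPM alone, with a log2 fold change of 0.07 (SE 0.233) and an adjusted p of 0.891 (limma), and it was -0.22 without MB1 alone replicate 1.

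**Figure D2:**
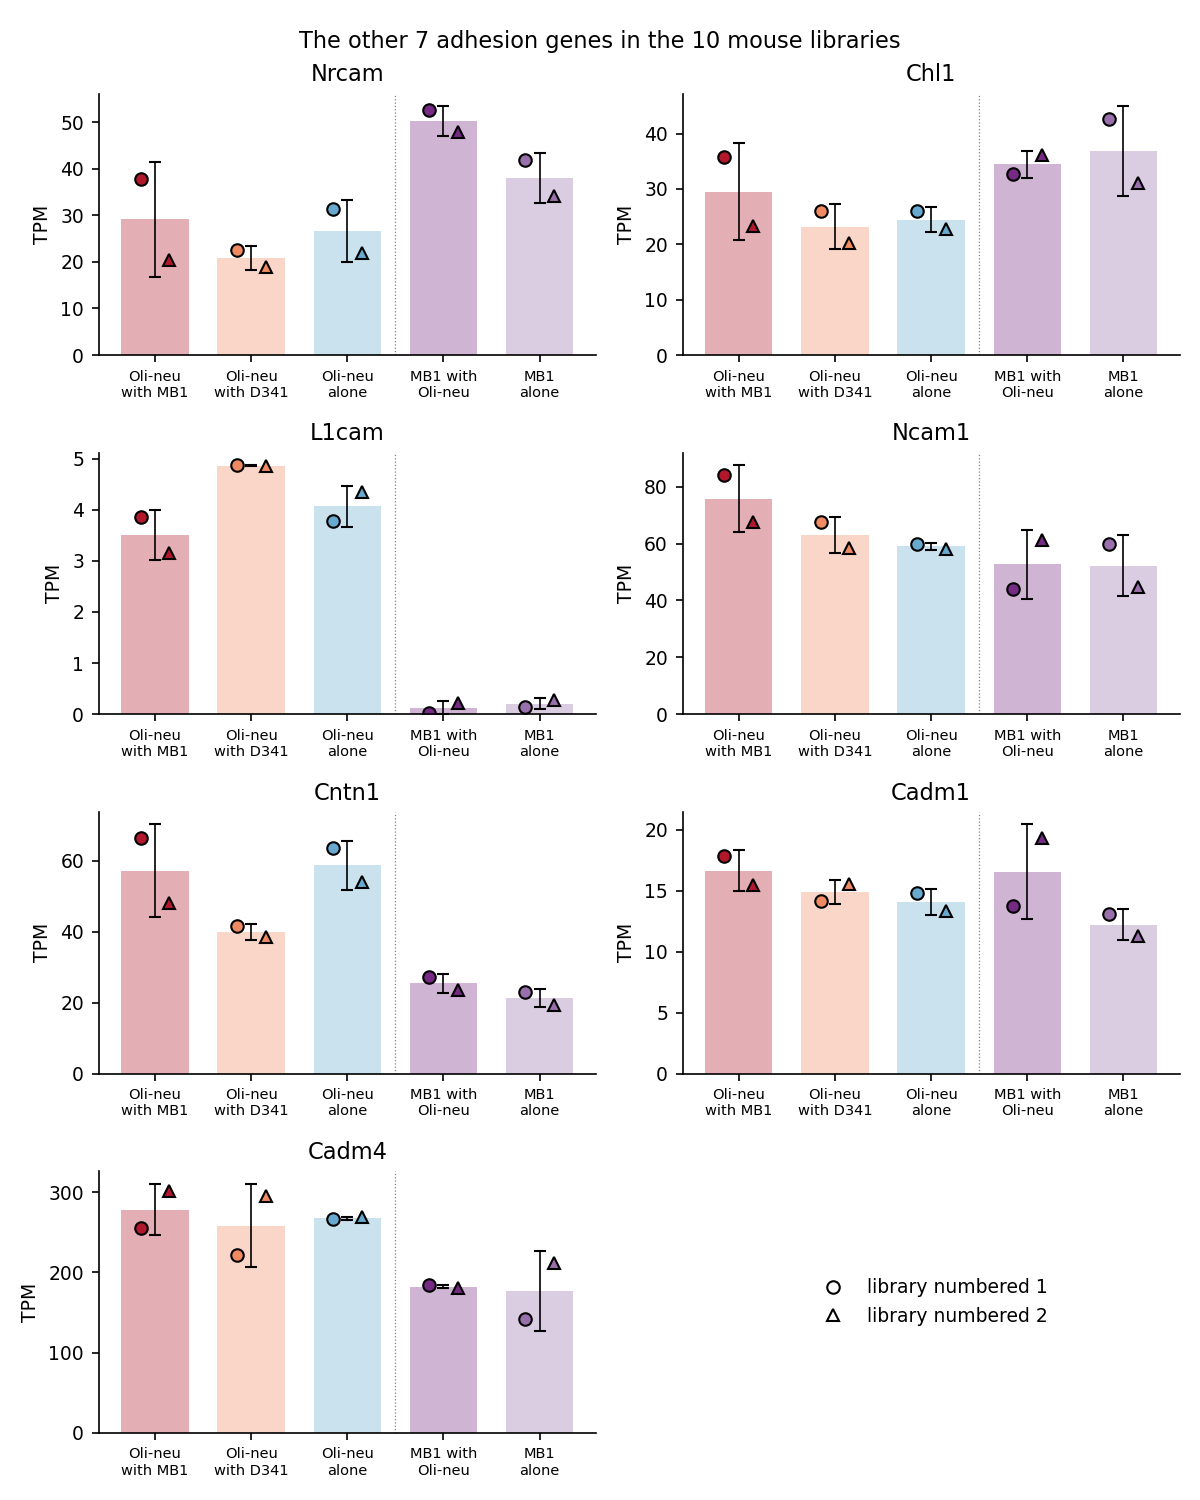
Level in TPM of the 7 other genes in the 5 mouse culture groups, 1 panel a gene with its own axis, with bars for the mean, error bars for the SD, and a circle and a triangle for the libraries numbered 1 and 2. L1cam lies below 1 TPM in MB1, and Cntn1 and Cadm4 are higher in Oli-neu than in MB1.

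Across the 6 Oli-neu libraries Nfasc spanned a 20.3-fold range, with 0.957 TPM as its median. The range of the 7 other genes was 1.34-fold for Cadm1 to 1.99-fold for Nrcam. In the 4 MB1 libraries the range was 6.12-fold for Nfasc and 8.44-fold for L1cam near its floor, and 1.37-fold to 1.70-fold for the other 6. Ordered by mean, Nfasc in Oli-neu with MB1 came after MB1 with Oli-neu and MB1 alone, and these 3 overlapped. Oli-neu alone and then Oli-neu with D341 followed, each apart from its neighbours.

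Beside MB1, 3 of 8 members, Nfasc, Ncam1 and Cadm1, had both libraries above both of Oli-neu alone, where 10.1% of the 12280 genes tested did. None had both below, where 24% of all genes did. Nfasc was among the 26 genes with a fold change of at least 4 on the scale of log2(TPM + 1), 0.212% of those tested. It met the minimum of 1 TPM in 2 libraries only through those beside MB1. The other Oli-neu libraries were at 1.07, 0.847, 0.775 and 0.541 TPM. The level beside MB1 was known when Nfasc was chosen, so its place among the 26 is a description. At an adjusted p under 0.05, limma called 0 of the 12280 genes, which is 0% and includes no member. At an unadjusted p under 0.05 it called 176 genes higher and 571 lower, 1.43% and 4.65%. The median log2 fold change of the members was 0.15, against -0.06 for all genes tested, and 0.22 with median-ratio scaling.

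Beside D341, 1 of 8 members, L1cam, had both libraries above both of Oli-neu alone, where 7.12% of genes did. Nfasc and Cntn1 had both below, where 44% did. Again limma called 0 genes at an adjusted p under 0.05 (0%), and 198 higher and 1486 lower at an unadjusted p under 0.05 (1.61% and 12.1%). Without Oli-neu with D341 replicate 2 it called 2 genes. The members' median was -0.07 and that of all genes -0.16. With median-ratio scaling the members' median turned to 0.11. Then 5 of 8 were above 0, and 49.8% of all genes were below 0.

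In the direct comparison of the co-cultures, the Nfasc mean beside D341 was 0.0774 times that beside MB1, a log2 fold change of -2.47 (SE 0.276). Nfasc and Cntn1 were below without overlap in that comparison, where 28.8% of genes were, and L1cam was above, where 6.6% were. The log2 fold changes were -0.49 for Cntn1 (SE 0.194) and 0.38 for L1cam (SE 0.128). The 5 other members overlapped, with log2 fold changes between -0.41 for Nrcam and -0.12 for Cadm4. Between libraries of the same number, Nrcam was at -0.72 and -0.10, Chl1 at -0.44 and -0.19 and Ncam1 at -0.31 and -0.20. Cadm4 was at -0.21 and -0.03 and Cadm1 at -0.31 and 0.01. The share of all genes lower in both numbers was not counted, and the median of all genes was -0.09. With median-ratio scaling Cadm4 was at -0.003. At an adjusted p under 0.05 limma called 0 genes (0%), at an unadjusted p under 0.05 it called 97 higher and 533 lower (0.79% and 4.34%), and without Oli-neu with D341 replicate 2 it called 3. These 3 comparisons share libraries.

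**Figure D3:**
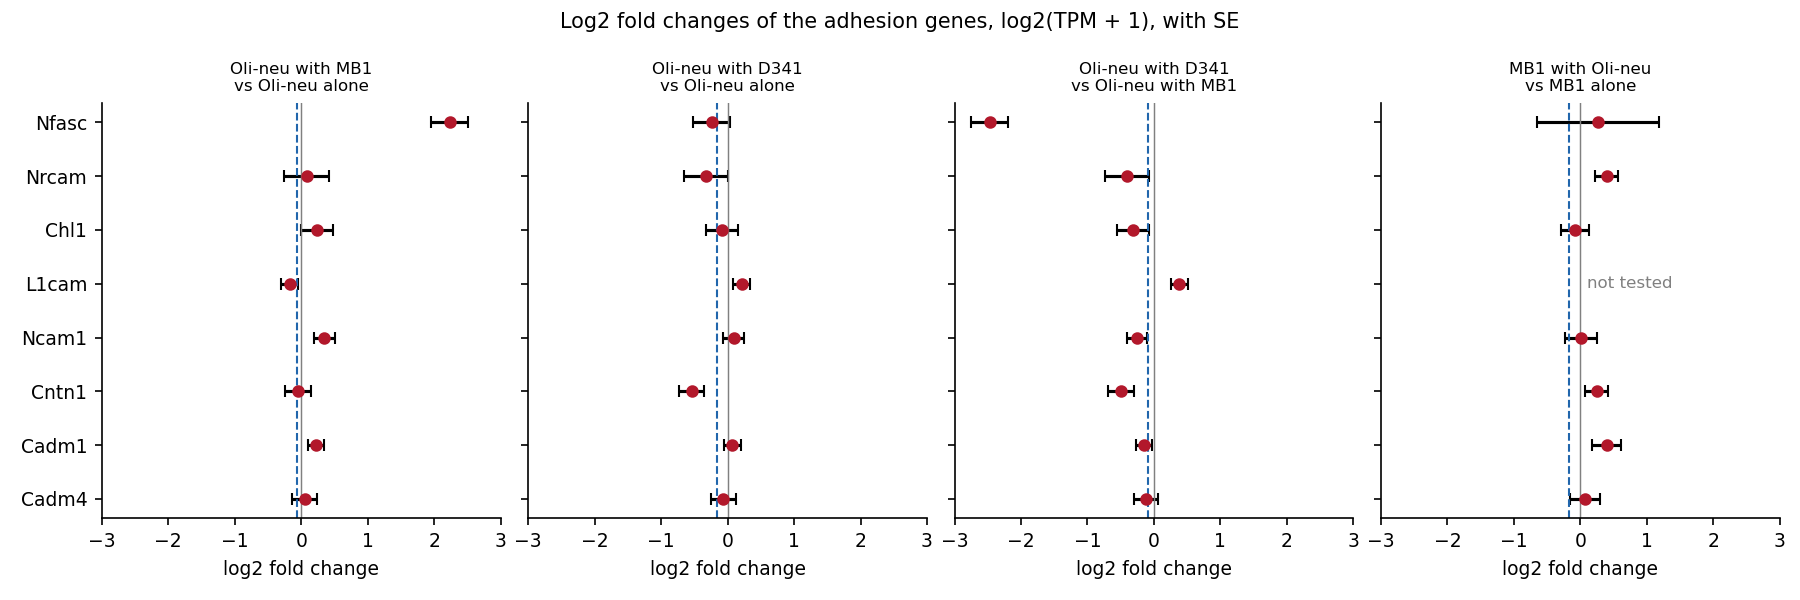
Log2 fold change on the scale of log2(TPM + 1) of each member in the 4 comparisons, with the SE of limma as error bars and a dashed blue line for the median of all genes tested. Nfasc is at 2.23 in Oli-neu with MB1 against Oli-neu alone and at -2.47 between the D341 and MB1 co-cultures, and at 0.26 with a wide error in MB1, while the other members lie between -0.54 and 0.40.

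In MB1 beside Oli-neu, no member passed. Nrcam, Cntn1 and Cadm1, 3 of the 7 tested, had both co-culture libraries above both of MB1 alone, where 10.9% of the 12407 genes tested did, and none had both below, where 41.5% did. The members' median log2 fold change was 0.25, against -0.17 for all genes. With median-ratio scaling, which removes that shift, all 7 members were above 0, with a median of 0.42. Of the 12342 genes tested under that scaling, 50.5% were below 0. At an adjusted p under 0.05 limma called 0 genes (0%), and 375 higher and 1569 lower at an unadjusted p under 0.05 (3.02% and 12.6%). The count moved with the library left out. It was 112 without MB1 alone replicate 1, 2 without MB1 with Oli-neu replicate 1, and 1 without MB1 with Oli-neu replicate 2 or without MB1 alone replicate 2. No member passed in any of these. With 2 biological replicates per group, the p-values measure the spread between these cultures of 1 line.

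The genes whose level over the 6 Oli-neu libraries was most like that of Nfasc, among 7643 with a mean of at least 5 TPM in a group, were Mapre2 (Pearson r 0.980), Zer1 (0.975), Gfra1 (0.975), Gpnmb (0.974) and Itprid2 (0.973). Mapre2, a microtubule plus-end binding protein, was at 27.7 and 24.97 TPM with MB1, at 20.5 and 21.4 TPM with D341 and at 21.1 and 21.1 TPM alone. Gfra1, a receptor for GDNF that can act with Ncam1, was at 7.93 and 6.62 TPM with MB1, at 5.50 and 5.32 TPM with D341 and at 5.74 and 5.72 TPM alone. Each of these 2 genes was high in the same pair of libraries as Nfasc, so r rests on that pair, and the libraries of a group share a line and a partner. Among the members, Ncam1 came nearest to Nfasc (r 0.855, rank 129), then Cadm1 (0.775) and Chl1 (0.693). Over all 10 mouse libraries, among 9104 genes, Mapre2 was again at the top (0.960), followed by Phyhipl (0.927), Max (0.917), Ep400 (0.911) and Pknox2 (0.887). Chl1 was the member nearest to Nfasc there (0.822, rank 31).

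The partners of these molecules were taken from 6 lists of 77 genes, of which 76 were in the tables. In Oli-neu with MB1, 55 could be tested. Of these, 24 had a higher and 31 a lower mean than in Oli-neu alone, where 37.4% and 62.6% of all genes did. Without overlap, 9 were higher and 7 lower, where 10.1% and 24% of all genes were. The median log2 fold change was -0.01, and with median-ratio scaling 38 had a higher and 17 a lower mean. In Oli-neu with D341, 7 had a higher and 48 a lower mean than alone, where 24.1% and 75.8% of all genes did, and 2 and 28 did not overlap, where 7.12% and 44% of all genes did not. The median was -0.18, against -0.16 for all genes. With median-ratio scaling 28 had a higher and 27 a lower mean, where 49.8% of all genes were lower. In MB1 with Oli-neu, 23 of 56 had a higher and 33 a lower mean, where 29.1% and 70.9% of all genes did, and 8 and 20 did not overlap, where 10.9% and 41.5% of all genes did not. The median was -0.12, against -0.17 for all genes. With median-ratio scaling 35 had a higher and 21 a lower mean, where 50.5% of all genes were lower. No listed gene passed in any comparison.

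By role, the 17 tested anchors to the cytoskeleton, ankyrins, spectrins and 4.1 proteins among them, all had a lower mean in Oli-neu with D341 than alone, and 10 did not overlap, where 75.8% and 44% of all genes did so. With median-ratio scaling 12 of the 17 were lower, where 49.8% of all genes were. Epb41l3, the 4.1B protein that ties the paranodal and internodal complexes to spectrin, was at 15.6 and 13.5 TPM with MB1, at 15.3 and 11.04 TPM with D341 and at 22.4 and 17.9 TPM alone. Its libraries in both co-cultures lay below those of Oli-neu alone, with log2 fold changes of -0.44 and -0.59 (SE 0.200 each). Ank2, an ankyrin, was at 31.6 and 21.5 TPM with D341, against 46.5 and 32.3 TPM with MB1. The log2 fold change between these co-cultures was -0.56.

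Of the extracellular matrix of nodes and nets, 8 genes were tested. All 8 had a lower mean in Oli-neu with D341 than alone, where 75.8% of all genes did. With median-ratio scaling 4 did, where 49.8% of all genes did. Tenascin-R (Tnr), a ligand of contactin and neurofascin, was at 11.7 and 7.61 TPM with MB1, at 5.22 and 4.65 TPM with D341 and at 9.06 and 7.004 TPM alone. The log2 fold change was -0.60 for D341 against alone and -0.82 for D341 against MB1. Versican (Vcan), a chondroitin sulfate proteoglycan, was at 192 and 134 TPM with MB1, against 125 and 119 TPM alone, and the link protein Hapln1 was at 44.9 and 34.9 TPM, against 48.4 and 48.9 TPM. The log2 fold changes were 0.39 (SE 0.196) and -0.29 (SE 0.149). The 2 genes thus lay on opposite sides of 0 beside MB1. Beside D341 Hapln1 was lower as well, at 35.9 and 34.9 TPM, with a log2 fold change of -0.45. Vcan was at 120 and 118 TPM there, with -0.03.

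Of the genes of the paranode and the node, Cntnap1, which encodes Caspr, was low in both lines, at 3.11 and 3.49 TPM in Oli-neu with MB1, at 2.88 and 2.77 TPM with D341 and at 3.16 and 4.02 TPM alone. In MB1 it was at 0.844 and 0.925 TPM with Oli-neu and at 1.18 and 1.11 TPM alone. Ank3, the ankyrin G of the node, was at 0.724 to 2.12 TPM in Oli-neu and 11.5 to 20.7 TPM in MB1. Cadm3, which encodes the axonal partner of Cadm4, was under 0.5 TPM in every library.

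Of other family members, Dscam, a homophilic adhesion molecule, was at 7.05 and 4.19 TPM in Oli-neu with D341, against 9.42 and 7.66 TPM alone, with a log2 fold change of -0.55. Nectin2 was at 21.7 and 24.9 TPM with D341, against 21.3 and 21.3 TPM alone, with a log2 fold change of 0.12 (SE 0.127). Among signalling partners, the kinase Fyn, which acts below L1 family proteins and Ncam1, was at 182 and 180 TPM in Oli-neu with MB1, against 210 and 206 TPM alone. Its log2 fold change was -0.20, and that of Gfra1 was 0.29. With D341 Fyn was lower still, at 141 and 157 TPM. The log2 fold changes of D341 against alone were -0.48 for Fyn and -0.07 for Gfra1. Of the 7 sheddases and polysialic acid genes, 5 were tested in Oli-neu with MB1. Of these, 4 had a higher and 1 a lower mean than alone, where 37.4% and 62.6% of all genes did.

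**Figure D4:**
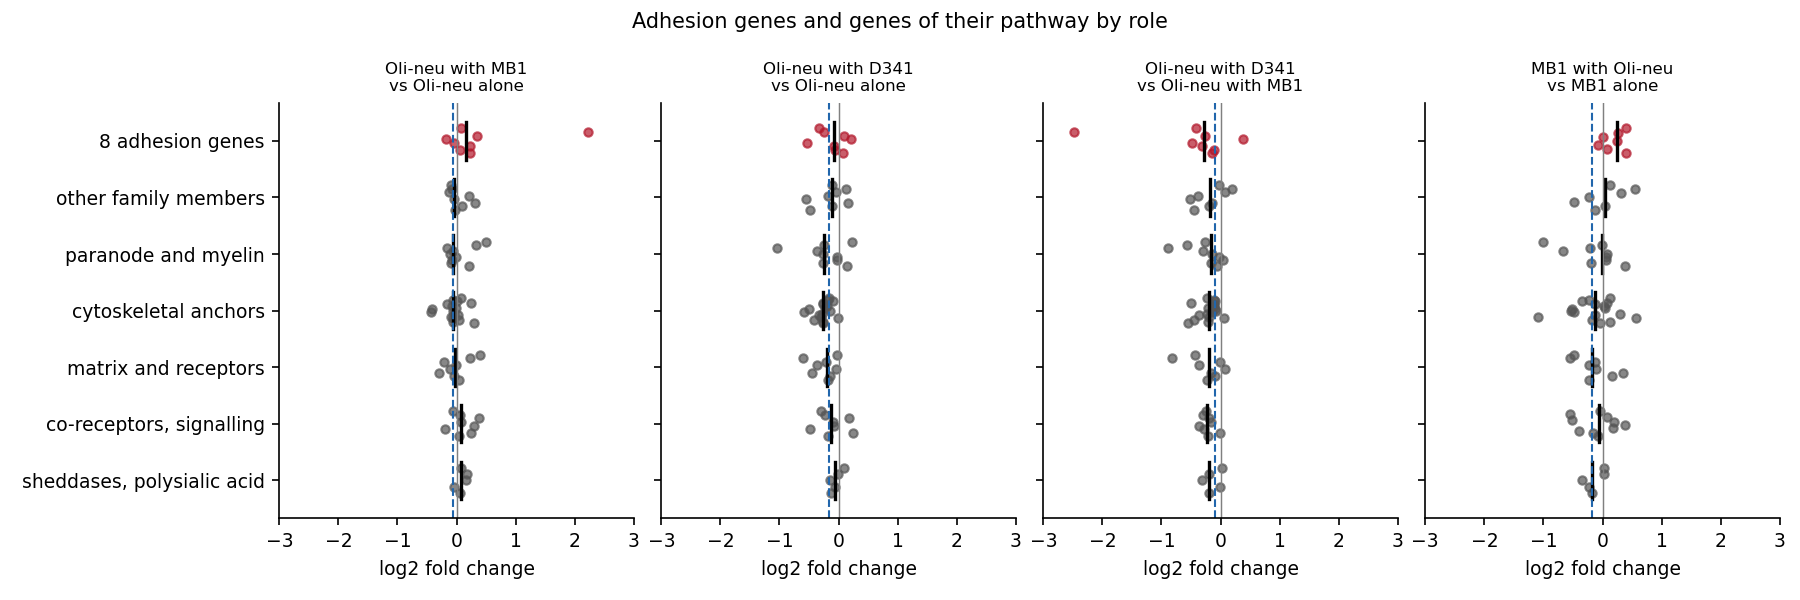
Log2 fold change on the scale of log2(TPM + 1) of the tested genes of each list by role in the 4 comparisons, with black ticks for the list medians and a dashed blue line for the median of all genes tested. All 17 anchors to the cytoskeleton lie below 0 beside D341, 12 of them with median-ratio scaling, where 75.8% and 49.8% of all genes do. The point at 2.23 among the 8 adhesion genes beside MB1 is Nfasc.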

How the data were processed

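The deposited tables, 1 per line, give TPM per gene. Per the submitters' processing notes, the authors' tools were Salmon 0.14.1, DESeq2 1.22.2, FastQC 0.11.8 and MultiQC 1.7, with the mouse build GRCm38. No counts were used, so no count test and no counting interval is given. Of 35288 identifiers, 35099 matched the GENCODE M21 annotation, which gave symbols and positions.

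A gene entered the tests when 2 or more libraries of its table reached 1 TPM. Its log2(TPM + 1) was fitted in limma 3.58.1 (R 4.3.3) using a mean-variance trend, with a fit over the 6 Oli-neu libraries and another over the 4 from MB1. Two-sided p-values were Benjamini-Hochberg adjusted over all tested genes and called under 0.05. The procedure was tested on simulated data. A fold change on this scale understates that of low genes.

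The members and lists were chosen with earlier results of these data known. All 8 members are named. Listed partners are named by the 3 highest and 3 lowest fold changes of each Oli-neu comparison without overlap and with a mean of at least 5 TPM in a group, and genes like Nfasc by the 5 highest correlations. A gene that this rule names is not reported here. Cntnap1, Ank3, Cadm3 and Zic1 were added after their values were seen. Alternatives were other pseudocounts, filters, scalings, fits and left-out libraries.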

Additional observations from a re-analysis of the deposited data

Results flagged for a closer look

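Nfasc stood on opposite sides of Oli-neu alone in the co-cultures. Both libraries of Oli-neu with D341 lay below it and both of Oli-neu with MB1 lay above it, and the log2 changes differed by -2.47 (D341 minus MB1). The log2 fold change beside D341 was -0.24, and -0.22 and -0.26 between libraries of the same number. It was smaller than its SE of 0.276, which was estimated over all Oli-neu groups together. Of all genes, 44% were lower there without overlap. In the comparison of these co-cultures limma called 0 of 12280 genes, so Nfasc was not called. It was chosen with its values known.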

How the results depend on the processing

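Of 454 values of the members under alternatives, 432 kept their sign. Nfasc in Oli-neu with MB1 against alone ranged from 1.16 to 2.97 over settings and from 1.85 to 2.61 with a library left out, and with D341 against MB1 from -3.46 to -1.23. Beside MB1, limma called 3 genes with a pseudocount of 0.1 TPM, 1 with no filter, 2 with median-ratio scaling, 2 over protein-coding genes alone and 1 with no trend, and 0 with any library left out. Beside D341 it called 3 with no filter, 1 over protein-coding genes alone and 0 to 2 with a library left out. With D341 against MB1 it called 6 with no filter, 1 over protein-coding genes alone, 1 with no trend and 0 to 3 with a library left out. In MB1 it called 5 over protein-coding genes alone, 9 with a robust fit and 1 to 112 with a library left out. Where a group kept 1 library, it was assumed to vary like the others.

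In MB1, with a library left out, the log2 fold change ran from -0.80 to 1.32 for Nfasc, from -0.30 to 0.14 for Chl1, from -0.22 to 0.24 for Ncam1 and from -0.22 to 0.36 for Cadm4. It was 0.11 for Chl1 with median-ratio scaling. In Oli-neu with MB1 against alone, left-out libraries gave -0.35 to 0.51 for Nrcam, -0.06 to 0.53 for Chl1, -0.28 to 0.18 for Cntn1 and -0.07 to 0.17 for Cadm4. With D341 against alone they gave -0.26 to 0.09 for Chl1, -0.27 to 0.14 for Cadm4 and -0.01 to 0.19 for Ncam1. The cause was not tested.

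With the replicate number as a block, 0 genes were called in all 4 comparisons. Deviations of same-numbered libraries correlated at 0.593 to 0.618 in Oli-neu and at -0.115 in MB1, where crossed numbers in the block also gave 0 calls. With 2 libraries per group and unknown depth, small differences were not detectable.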

Other observations

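The arrangement of Nfasc in MB1, high in MB1 with Oli-neu library 2 and MB1 alone library 1, was looked for in other genes after its values were seen. Of 12407 genes, 40 had both of these libraries at least 2-fold above the other 2 on the scale of log2(TPM + 1), and 31 had the opposite arrangement. Of the 40, 28 were annotated as pseudogenes, where 866 of all genes tested were, and 11 were protein-coding, where 11494 were. The types of the 31 were not counted, so whether this share is particular to the arrangement of Nfasc was not tested. Nfasc ranked 135 by its spread within groups. The cause was not tested.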
